A study of Mus musculus with 9 samples.

Results

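Excitatory synapses of the cortex signal through glutamate receptors that are held opposite the release site by a lattice of scaffold proteins, and the RNAs of 34 genes of this machinery were followed in primary mouse cortical neurons under low oxygen. The 34 genes were chosen by symbol: 22 receptor genes (4 AMPA, 5 kainate, 6 NMDA, 1 delta and 6 metabotropic receptor genes), 10 scaffold genes (3 MAGUK, 3 SHANK and 4 SAPAP genes) and the 2 main CaMKII subunits of the brain. All 34 were among the 24054 rows of the expression table, and all 34 were among the 12923 rows with a value above 1 in at least 3 of the 9 libraries. The wild-type neurons came from C57BL/6 mice and had been in culture for 6 days. In the group called hypoxia with T3 the neurons spent 7 hours in 0.2% oxygen with 10 nM triiodothyronine (T3), the active thyroid hormone, in the medium; in the group called hypoxia they spent 7 hours in 0.2% oxygen without added T3; in normoxia they stayed at normal oxygen, also without added T3. Each group had 3 libraries of polyadenylated RNA. All groups were grown in Neurobasal medium with B27, a supplement that itself contains T3, and no normoxic group with added T3 was analysed here, so T3 was compared only between hypoxic cultures. The series asks how the hormone acts on neurons that are harmed by lack of oxygen. The labels do not give the age of the animals or whether separate cultures were behind the 3 libraries per group, so the spread that p-values are measured against may be technical.

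AMPA receptors carry most of the fast current at excitatory synapses. NMDA receptors open only when glutamate, a co-agonist and depolarization coincide, and they admit the calcium that activates CaMKII, a kinase stored in the postsynaptic density. Kainate receptors act on both sides of the synapse, and metabotropic receptors work through G proteins, group I through phospholipase C and groups II and III by lowering cyclic AMP. MAGUK proteins such as PSD-95 bind receptor tails, SAPAP proteins tie the MAGUKs to SHANK proteins, and SHANK proteins reach on to Homer and actin. In ischemia and hypoxia this system is best known for excitotoxicity, the calcium overload that follows from too much glutamate.

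The deposited values are CPM that the authors scaled by TMM, which corrects read counts for library size and for a trimmed mean of the ratios between libraries. The libraries held 17182339 to 33937842 reads, and 1 read equalled 0.0302 to 0.0565 CPM. Libraries are named by the number in their column header, 11 to 13 in hypoxia with T3, 7 to 9 in hypoxia and 1 to 3 in normoxia, and values below are given in that order. A log2 change is a difference of group means on the log2(CPM + 1) scale, which understates the change of low genes; SE is its standard error, and p-values were adjusted by Benjamini-Hochberg over all tested genes with a threshold of 0.05. As a check of the labels, the log2 changes of the hypoxia-responsive genes Slc2a1, Pdk1 and Bnip3 in hypoxia against normoxia were 2.40, 1.78 and 1.66. All 6 neuronal markers were detected, with summed levels of 4890 to 4950 CPM in hypoxia with T3, 4980 to 5490 CPM in hypoxia and 6570 to 7050 CPM in normoxia. Of these 6, 3 were lower in hypoxia than in normoxia (limma, adjusted p under 0.05), namely the tubulin Tubb3, the vesicle protein Syt1 and the nuclear marker Rbfox3, with log2 changes of -1.12, -0.54 and -0.28. Stmn2, Map2 and Snap25 did not pass, with log2 changes of -0.10, 0.11 and -0.07. The 6 excitatory neuron markers summed to 839 to 986 CPM in hypoxia with T3, 964 to 1060 CPM in hypoxia and 1110 to 1260 CPM in normoxia. Among them Slc17a7, the vesicular glutamate transporter of cortical neurons, had a log2 change of -0.01 in hypoxia against normoxia. Markers of other cells were present too. The 9 GABAergic neuron markers summed to 324 to 506 CPM in hypoxia with T3, 293 to 488 CPM in hypoxia and 295 to 457 CPM in normoxia. The 11 astrocyte markers summed to 268 to 372 CPM in hypoxia with T3, 204 to 395 CPM in hypoxia and 186 to 299 CPM in normoxia. Slc1a2 held the largest part of these sums, 140 to 198 CPM, with a log2 change of 0.03 in hypoxia against normoxia. Slc1a3 ran from 5.00 to 45.1 CPM within normoxia, with a log2 change of 1.21 (limma, adjusted p = 0.2). Aldoc was higher in hypoxia, 1.935 (SE 0.607, adjusted p = 0.031), with overlapping groups. The other tested astrocyte markers did not pass. The 8 oligodendrocyte lineage markers summed to 133 to 189 CPM in hypoxia with T3, 79.7 to 213 CPM in hypoxia and 41.0 to 144 CPM in normoxia. In all 3 lists the ranges of the groups overlapped. The 8 markers of progenitors and cycling cells summed to 82.6 to 149 CPM in hypoxia with T3, 53.6 to 156 CPM in hypoxia and 18.5 to 113 CPM in normoxia. Microglial and endothelial markers were near 0, with sums of at most 1.56 and 1.39 CPM in any library. The part of these cells in the results was not tested. In bulk RNA, fewer cells of a type and less RNA per cell cannot be told apart.

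The upstream DNA of 4 members is shown. They were taken from the 7 windows that adjoin the annotated end of a member that was lower in hypoxia. Grm2, Grm8 and Dlgap1 had the smallest p-values among these in hypoxia against normoxia (limma). Grin1, which encodes the subunit that every NMDA receptor needs, was added because its window held the most places with the ACGTG motif described below. Its motif content is therefore not a finding. Each sequence is the 250 bases before an annotated start, written 5′ to 3′ on the strand of the gene, from the RefSeq promoter table for GRCm38. Capitals mark ACGTG or its reverse complement CACGT, the core of the element that hypoxia-inducible factors bind, and AGGTCA, a half-site of nuclear receptors such as the thyroid hormone receptors.
Grm8 (chr6:28135147-28135396, minus strand): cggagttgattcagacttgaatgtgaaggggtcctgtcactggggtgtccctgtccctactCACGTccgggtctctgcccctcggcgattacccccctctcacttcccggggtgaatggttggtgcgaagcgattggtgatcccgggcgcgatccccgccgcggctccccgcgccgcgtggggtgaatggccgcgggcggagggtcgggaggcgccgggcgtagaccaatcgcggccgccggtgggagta
Dlgap1 (chr17:69968823-69969072, plus strand): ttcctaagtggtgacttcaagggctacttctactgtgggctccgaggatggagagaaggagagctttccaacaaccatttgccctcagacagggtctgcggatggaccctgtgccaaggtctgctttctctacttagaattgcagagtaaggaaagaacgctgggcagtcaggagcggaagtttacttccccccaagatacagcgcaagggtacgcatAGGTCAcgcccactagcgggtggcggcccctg
Grm2 (chr9:106656110-106656359, minus strand): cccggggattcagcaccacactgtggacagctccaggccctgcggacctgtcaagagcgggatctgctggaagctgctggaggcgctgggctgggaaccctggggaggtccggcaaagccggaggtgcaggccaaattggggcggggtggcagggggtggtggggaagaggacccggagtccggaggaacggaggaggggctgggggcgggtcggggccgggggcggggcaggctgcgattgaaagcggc
Grin1 (chr2:25319188-25319437, minus strand): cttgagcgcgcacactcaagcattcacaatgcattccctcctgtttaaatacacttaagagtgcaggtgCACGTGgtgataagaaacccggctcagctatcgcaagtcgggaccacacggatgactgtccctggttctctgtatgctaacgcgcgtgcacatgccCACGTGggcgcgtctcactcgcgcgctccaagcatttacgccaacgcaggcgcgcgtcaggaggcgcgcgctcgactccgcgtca
The Grm8 window shown held 1 place with the ACGTG motif, and the Dlgap1 window shown 1 place with AGGTCA. The Grin1 window held 2 places where ACGTG and its complement overlap as CACGTG, and the Grm2 window held neither motif. Grm8 has 3 windows and Dlgap1 has 2. The other Grm8 windows held neither motif, and the other Dlgap1 window held both. The bases after the Grm2 window were not found in GENCODE transcripts of Grm2, unlike those after the windows shown for the other genes. The table held windows for 21 of the 34 members, 31 windows in all. Searched on both strands, ACGTG stood in 16.1% of the 31 member windows, against 16.6% of all 32851 windows of the table, and AGGTCA stood in 12.9%, against 14.0%. Of the 20 windows of members that were lower in hypoxia 25.0% held ACGTG and 10.0% AGGTCA, and of the 11 windows of the other members 0.0% and 18.2%; some genes have several windows, and no test was made. These shares describe the letters of the windows and say nothing about binding.

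In hypoxia the RNA of this machinery was lower in most places where a change passed the test. Of the 34 members, 20 were lower and 1 was higher than in normoxia (limma, adjusted p under 0.05 over 12923 genes). That is 58.8% lower and 2.94% higher, against 19.3% lower and 14.3% higher among all tested genes. The median log2 change was -0.31 for the members and -0.001 for all tested genes. Of the 22 receptors 14 were lower, and of the 12 scaffold and CaMKII genes 6 were lower and 1 was higher. In 21 members (61.8%) all 3 hypoxia libraries lay below all 3 normoxia libraries, which held for 27.0% of tested genes, and in 1 member they lay above, which held for 20.7%. Gene length went with the change: 14 of the 34 span more than 300 kb, and 11 of these 14 (78.6%) were lower, beside 78.5% of all 494 tested genes of that span. The direction of the small changes rests on the scaling. With every library scaled to the same column sum, which moves the median of all tested genes to 0.13, 13 members were lower and 4 were higher (Dlg3, Dlg4, Dlgap3 and Camk2a). Of all 12937 genes tested with that scaling, 1229 were lower and 3982 higher. Of the 21 calls, 12 held in all 21 alternative settings: Gria2, Grik2, Grin2a, Grin2b, Grid1, Grm2, Grm3, Grm5, Grm7, Grm8, Dlgap1 and Dlgap2.

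**Figure D1:**
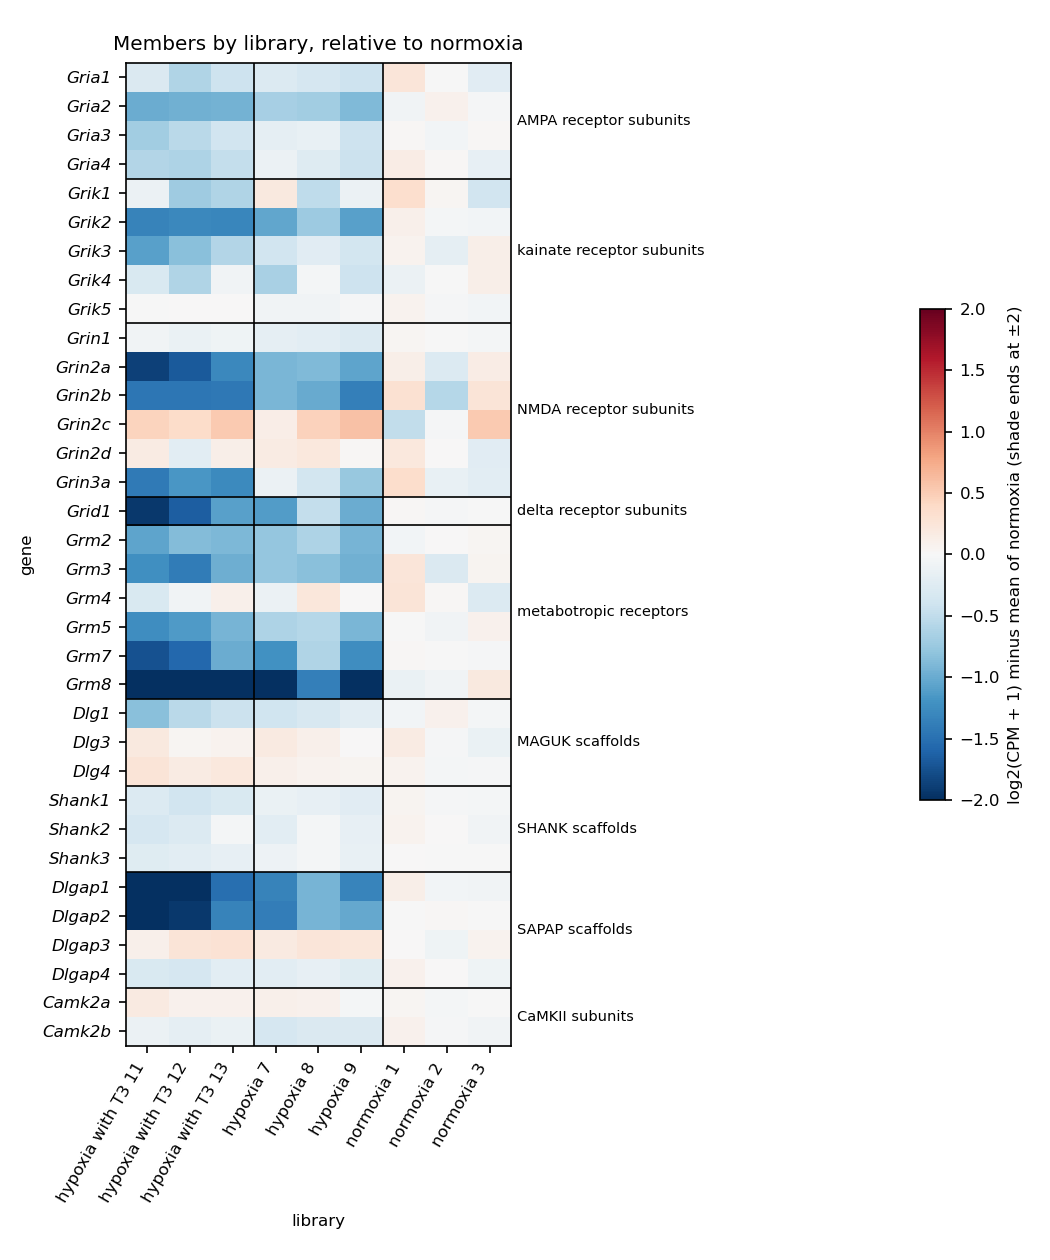
Level of each of the 34 members (rows, by class) in each of the 9 libraries (columns), as log2(CPM + 1) minus the mean of the 3 normoxia libraries; blue is lower and red is higher, and the shade ends at ±2. Grm8, Dlgap1 and Dlgap2 are dark blue in the libraries of hypoxia with T3, paler in hypoxia and near white in normoxia, while Grik5, Camk2a and Dlg4 are pale in all columns.

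Of the 4 AMPA receptor subunits, which form the fast glutamate channel, 3 were lower in hypoxia. Gria2, the subunit that after RNA editing keeps calcium out of the channel, lies at chr3:80681450-80804227 of GRCm38 and had the largest change of the class. It measured 284, 288 and 292 CPM in hypoxia with T3, 356, 347 and 306 CPM in hypoxia and 538, 601 and 558 CPM in normoxia. Every hypoxic library, with or without T3, was below every normoxia library. The mean was 336 ± 26.8 CPM in hypoxia and 566 ± 31.9 CPM in normoxia (SD, n = 3), and the log2 change was -0.75 (SE 0.06, adjusted p = 2.4e-05). Gria1, a subunit whose insertion accompanies potentiation, measured 214, 173 and 196 CPM in hypoxia with T3, 216, 206 and 195 CPM in hypoxia and 308, 261 and 222 CPM in normoxia. Its log2 change in hypoxia against normoxia was -0.35 (SE 0.11, adjusted p = 0.03), and normoxia 1 stood above the 2 other normoxia libraries. Gria4, which is prominent in interneurons, measured 34.3, 33.7 and 37.3 CPM in hypoxia with T3, 47.8, 43.4 and 38.3 CPM in hypoxia and 57.6, 52.9 and 46.4 CPM in normoxia, and the hypoxia and normoxia ranges overlapped. Its log2 change was -0.27 (SE 0.10, adjusted p = 0.048). The calls of Gria1 and Gria4 were lost in 8 and 14 of 21 settings, among them equal column sums and leaving out normoxia 1. In normoxia 1 the GABAergic markers were also highest of that group, at 457 CPM beside 403 CPM in normoxia 2 and 295 CPM in normoxia 3. In the other groups these markers were highest in hypoxia 7 (488 CPM) and T3 11 (506 CPM), and Gria1 was highest there too. Gria4 was highest in hypoxia 7, but with T3 it was highest in T3 13, where the markers were lowest (324 CPM). Other cells differed too. Normoxia 1 and hypoxia 7 had the lowest sums of their groups for oligodendrocyte lineage markers (41.0 and 79.7 CPM). The same held for the progenitor markers (18.5 and 53.6 CPM). T3 11 was lowest of its group for the oligodendrocyte lineage (133 CPM) but not for the progenitors (98.3 CPM). The part of these cells was not tested. Gria3 did not pass, with a log2 change of -0.25 (SE 0.09, adjusted p = 0.061), although its hypoxia libraries (34.1 to 41.3 CPM) all lay below its normoxia libraries (44.4 to 46.9 CPM).

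Among the kainate receptor subunits 2 of 5 were lower and 3 did not pass. Grik2, a pore-forming subunit that can make channels on its own, had 18.6, 19.3 and 19.0 CPM in hypoxia with T3, 23.1, 29.0 and 22.2 CPM in hypoxia and 52.3, 47.1 and 46.5 CPM in normoxia. The hypoxia libraries were closer to those with T3 than to those of normoxia, without overlap on either side. The log2 change in hypoxia against normoxia was -0.95 (SE 0.10, adjusted p = 8.4e-05). Grik3, a related pore-forming subunit, had 69.6, 83.5 and 99.2 CPM in hypoxia with T3, 114, 127 and 116 CPM in hypoxia and 158, 131 and 162 CPM in normoxia. The highest hypoxia library came within a few CPM of the lowest normoxia library, and the log2 change was -0.33 (SE 0.12, adjusted p = 0.048), a call lost in 14 of 21 settings. Grik5, which must join with Grik1, Grik2 or Grik3 to work, had 250.2, 253 and 253 CPM in hypoxia with T3, 239, 239.9 and 248 CPM in hypoxia and 264, 248 and 242 CPM in normoxia. The groups overlapped, and its log2 change was -0.05 (SE 0.05, adjusted p = 0.42). Grik1 and Grik4 did not pass either, with log2 changes of -0.14 (SE 0.22, adjusted p = 0.64) and -0.37 (SE 0.17, adjusted p = 0.12). Grik1, known from interneurons, was highest in the library of each group in which the GABAergic markers were highest, with 13.1 CPM in T3 11, 16.5 CPM in hypoxia 7 and 18.4 CPM in normoxia 1; the marker sums there were 506, 488 and 457 CPM. The part of these cells in its spread was not tested.

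The NMDA receptor subunits split. Grin1, Grin2a and Grin2b were lower in hypoxia, and Grin2c, Grin2d and Grin3a did not pass. Grin2b, the glutamate-binding subunit of young synapses, lies at chr6:135713221-136173615 and measured 46.9, 46.6 and 47.5 CPM in hypoxia with T3, 68.0, 63.7 and 49.3 CPM in hypoxia and 160.0, 86.9 and 155 CPM in normoxia. Normoxia 2 was far below the 2 other normoxia libraries and still above all hypoxia libraries. The mean was 60.4 ± 9.82 CPM in hypoxia and 134 ± 40.9 CPM in normoxia (SD, n = 3), and the log2 change was -1.10 (SE 0.20, adjusted p = 0.002). Grin2a, the subunit that replaces much of Grin2b as the cortex matures, measured 2.88, 3.39 and 4.78 CPM in hypoxia with T3, 6.50, 6.66 and 5.81 CPM in hypoxia and 14.4, 10.7 and 14.7 CPM in normoxia. The 3 groups did not overlap, and the log2 change in hypoxia against normoxia was -0.95 (SE 0.16, adjusted p = 0.0015). Grin1, which binds the co-agonist glycine or D-serine, changed less. It measured 399, 382 and 396 CPM in hypoxia with T3, 369, 359 and 346 CPM in hypoxia and 429.6, 417 and 406 CPM in normoxia, and its hypoxia libraries lay below the normoxia libraries with a log2 change of -0.22 (SE 0.04, adjusted p = 0.004); the call was lost with equal column sums (adjusted p = 0.11) and with quantile normalization (adjusted p = 0.1). Grin3a, a glycine-binding subunit that lowers calcium entry, measured 7.50, 9.08 and 8.34 CPM in hypoxia with T3, 19.8, 16.4 and 12.3 CPM in hypoxia and 27.9, 19.4 and 18.5 CPM in normoxia, and its hypoxia and normoxia libraries overlapped (log2 change -0.41, SE 0.18, adjusted p = 0.092). Grin2c and Grin2d had log2 changes of 0.40 (SE 0.23, adjusted p = 0.2) and 0.14 (SE 0.13, adjusted p = 0.45). Grin2c was near the filter on low values, with 0.622 to 1.22 CPM in hypoxia and 0.0416 to 1.11 CPM in normoxia. Grid1, the delta receptor that links presynaptic neurexins through cerebellins, measured 17.1, 20.9 and 31.2 CPM in hypoxia with T3, 30.6, 48.2 and 33.6 CPM in hypoxia and 68.9, 66.8 and 67.2 CPM in normoxia. The 3 normoxia libraries lay close together and above all others, and the log2 change in hypoxia against normoxia was -0.86 (SE 0.20, adjusted p = 0.0069).

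Of the 6 metabotropic receptors 5 were lower in hypoxia. Grm8, a group III receptor of presynaptic terminals, lies at chr6:27275121-28135146 and had the largest log2 change of all 34 members. Grm8 measured 1.49, 1.80 and 2.32 CPM in hypoxia with T3, 3.11, 6.10 and 3.61 CPM in hypoxia and 15.7, 16.5 and 19.8 CPM in normoxia. The highest hypoxia library was far below the lowest normoxia library, and the libraries with T3 were lower still. The mean was 4.28 ± 1.60 CPM in hypoxia and 17.4 ± 2.18 CPM in normoxia (SD, n = 3), and the log2 change was -1.83 (SE 0.19, adjusted p = 0.00011). Grm7, the group III receptor of the release site itself, measured 15.7, 17.7 and 27.0 CPM in hypoxia with T3, 23.1, 35.5 and 22.5 CPM in hypoxia and 55.5, 54.6 and 53.7 CPM in normoxia, with normoxia libraries close together and hypoxia 8 above the 2 other hypoxia libraries. Its log2 change was -1.02 (SE 0.19, adjusted p = 0.0027). Grm5, the group I receptor that Homer ties to SHANK, measured 105, 114 and 131 CPM in hypoxia with T3, 163, 169 and 133 CPM in hypoxia and 248, 238 and 266 CPM in normoxia. The groups did not overlap, and the log2 change was -0.70 (SE 0.10, adjusted p = 0.00056). Among the group II receptors, Grm2, at chr9:106644534-106656109, measured 53.0, 60.8 and 59.5 CPM in hypoxia with T3, 64.8, 72.2 and 57.8 CPM in hypoxia and 107, 113 and 115 CPM in normoxia, a log2 change of -0.78 (SE 0.08, adjusted p = 0.00011). Grm3, which astrocytes also express, measured 16.4, 14.4 and 19.6 CPM in hypoxia with T3, 22.6, 21.6 and 19.9 CPM in hypoxia and 46.7, 32.0 and 41.2 CPM in normoxia, a log2 change of -0.86 (SE 0.14, adjusted p = 0.0011). In both, every hypoxia library lay below every normoxia library. Grm4, the remaining group III receptor, had overlapping groups and a log2 change of 0.03 (SE 0.15, adjusted p = 0.88).

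**Figure D2:**
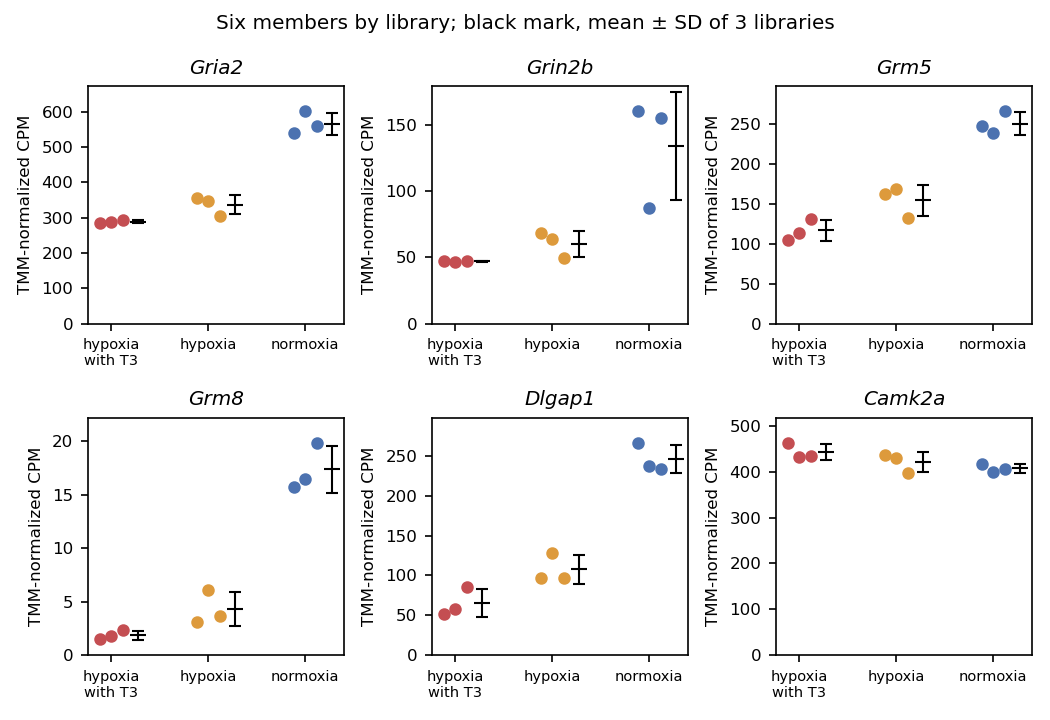
TMM-normalized CPM (vertical axis, from 0) of 6 members in the 3 libraries of hypoxia with T3, hypoxia and normoxia; points are libraries and the black mark is the mean ± SD. Gria2, Grin2b, Grm5, Grm8 and Dlgap1 have all hypoxic libraries below all normoxia libraries, while the libraries of Camk2a lie between 396 and 463 CPM in all groups.

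Of the 6 MAGUK and SHANK genes Dlg1 and Shank1 were lower in hypoxia, and 4 did not pass. Among the MAGUK genes Dlg1 (SAP97), which carries AMPA receptors to the synapse, measured 21.6, 26.5 and 28.9 CPM in hypoxia with T3, 29.3, 31.2 and 33.8 CPM in hypoxia and 37.9, 41.5 and 38.3 CPM in normoxia. Its hypoxia libraries lay below its normoxia libraries, with a log2 change of -0.31 (SE 0.10, adjusted p = 0.034) that was lost in 7 of 21 settings. Dlg4 (PSD-95), the central scaffold of the excitatory synapse, had 708, 659.7 and 680.5 CPM in hypoxia with T3, 630.5, 618 and 610.3 CPM in hypoxia and 616, 575 and 577 CPM in normoxia, and hypoxia and normoxia overlapped (log2 change 0.07, SE 0.05, adjusted p = 0.26). Dlg3 (SAP102), the MAGUK of young synapses, had a log2 change of 0.10 (SE 0.08, adjusted p = 0.36). Shank1, which fills the depth of the postsynaptic density, measured 466, 433 and 456 CPM in hypoxia with T3, 512, 499.8 and 480.0 CPM in hypoxia and 586, 556 and 548 CPM in normoxia. The groups did not overlap, the log2 change was -0.18 (SE 0.05, adjusted p = 0.017), and with equal column sums it was -0.04 (adjusted p = 0.43). Shank2 and Shank3 did not pass, with log2 changes of -0.14 (SE 0.08, adjusted p = 0.2) and -0.10 (SE 0.05, adjusted p = 0.13). Both changed sign with equal column sums, to 0.004 and 0.041.

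All 4 SAPAP genes passed the test, and they did not share a direction. Dlgap1, the best known SAPAP of the cortex, lies at chr17:69969073-70821413 and measured 52.0, 58.3 and 85.2 CPM in hypoxia with T3, 96.8, 129 and 97.2 CPM in hypoxia and 266, 237 and 234 CPM in normoxia. Every group was clear of the next, with normoxia highest. The mean was 108 ± 18.3 CPM in hypoxia and 246 ± 17.8 CPM in normoxia (SD, n = 3), and the log2 change was -1.20 (SE 0.16, adjusted p = 0.00044). Dlgap2 measured 4.65, 5.22 and 8.34 CPM in hypoxia with T3, 8.08, 11.4 and 10.6 CPM in hypoxia and 22.4, 23.0 and 22.6 CPM in normoxia, and its log2 change was -1.11 (SE 0.17, adjusted p = 0.001). Dlgap4 measured 309, 304 and 328 CPM in hypoxia with T3, 330.0, 342 and 324 CPM in hypoxia and 404, 385 and 358 CPM in normoxia, a smaller log2 change of -0.20 (SE 0.05, adjusted p = 0.016) that was lost with equal column sums (adjusted p = 0.35). Dlgap3 was the only member that was higher in hypoxia in the fit to the deposited values. It measured 229, 255 and 263 CPM in hypoxia with T3, 243, 254 and 250.0 CPM in hypoxia and 217, 202 and 226 CPM in normoxia, and its hypoxia libraries all lay above its normoxia libraries (log2 change 0.21, SE 0.06, adjusted p = 0.021). Without normoxia 2, hypoxia 8 or hypoxia 9 its adjusted p was 0.078, 0.063 and 0.059. Of the CaMKII subunits, Camk2b, the actin-binding subunit that is abundant in young neurons, measured 1252, 1199 and 1228 CPM in hypoxia with T3, 1071, 1111 and 1107 CPM in hypoxia and 1430, 1335 and 1293 CPM in normoxia. The 3 hypoxia libraries lay below all others, and the log2 change against normoxia was -0.30 (SE 0.05, adjusted p = 0.0014); the call was lost with quantile normalization (adjusted p = 0.06). Camk2a, the subunit that dominates in the adult forebrain, measured 463, 432 and 434 CPM in hypoxia with T3, 437, 431 and 396 CPM in hypoxia and 418, 398 and 406 CPM in normoxia, with overlapping groups and a log2 change of 0.05 (SE 0.05, adjusted p = 0.51).

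Adding T3 to hypoxic neurons was followed by lower levels of 8 members and higher levels of none. The 8 were Grik2, Grik3, Grin2a, Grin3a, Grm5, Grm8, Dlgap1 and Dlgap2, or 23.5% of the 34, against 3.75% lower, 2.73% higher and 6.48% in either direction among all tested genes (limma). At unadjusted p under 0.05 (limma), 16 members were lower and 3 higher. No share of all tested genes at that threshold is given here. Neither these counts nor those at that threshold below can therefore be read as a result about the members. By edgeR 7 were lower and none higher, beside 428 lower and 324 higher of all 12888 genes in that fit. By DESeq2 11 were lower and 3 higher (Grin1, Dlg4 and Camk2b), beside 971 lower and 771 higher of the same genes. This comparison shares its 3 hypoxia libraries with the comparison against normoxia, and the 2 are not independent. The median log2 change was -0.19 for the members and -0.01 for all tested genes. In 14 members (41.2%) all 3 libraries with T3 lay below all 3 hypoxia libraries, which held for 15.8% of tested genes, and in 4 members (11.8%) they lay above, which also held for 15.8%; these 4 were Grik5, Grin1, Dlg4 and Camk2b. The calls depended on the setting. None of the 8 log2 changes turned positive in any of the 21 settings, but the 8 were picked as lower in these same libraries. A kept sign is therefore no added evidence. Over these settings the log2 changes ran from -1.04 to -0.66 for Grin3a, -1.21 to -0.42 for Grm8, -0.94 to -0.59 for Dlgap1 and -0.43 to -0.25 for Grik2. With all 9 libraries kept, no member passed with no filter on low values or with no variance trend, with 16 and 15 members lower at unadjusted p under 0.05. Of all tested genes 79 and 140 were then lower, and 93 and 94 higher, at adjusted p under 0.05. Without hypoxia 7, hypoxia 8, T3 11 or T3 12 no member passed, with 13, 15, 14 and 13 members lower at unadjusted p under 0.05; of all tested genes 41, 14, 23 and 12 were then lower at adjusted p under 0.05. Without normoxia 2, which enters only through the shared spread, 4 members were lower.

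Grin3a had a log2 change of -0.86 (SE 0.18, adjusted p = 0.025) with T3 against hypoxia. Its libraries with T3 lay between 7.50 and 9.08 CPM and its hypoxia libraries between 12.3 and 19.8 CPM. Grm8 had -0.85 (SE 0.19, adjusted p = 0.034), its mean being 1.87 ± 0.420 CPM in hypoxia with T3 and 4.28 ± 1.60 CPM in hypoxia (SD, n = 3). Dlgap1 had -0.73 (SE 0.16, adjusted p = 0.032), and Dlgap2 had -0.67 (SE 0.17, adjusted p = 0.048). In Dlgap2 the groups overlapped, since T3 13 with 8.34 CPM was above hypoxia 7 with 8.08 CPM. In the other 7 called members the groups did not overlap, and T3 13 was the library with T3 nearest to hypoxia in Grik3, Grin2a, Grm5, Grm8 and Dlgap1. Grin2a had a log2 change of -0.66 (SE 0.16, adjusted p = 0.039), Grik3 of -0.51 (SE 0.12, adjusted p = 0.034), Grm5 of -0.40 (SE 0.10, adjusted p = 0.039) and Grik2 of -0.36 (SE 0.10, adjusted p = 0.049). Close to the threshold were Grid1 at -0.69 (SE 0.20, adjusted p = 0.054) and Gria2 at -0.22 (SE 0.06, adjusted p = 0.057). Grin1, Dlg4 and Camk2b stood on the other side of 0, with log2 changes of 0.13 (SE 0.04, adjusted p = 0.089), 0.14 (SE 0.05, adjusted p = 0.088) and 0.16 (SE 0.05, adjusted p = 0.07). By class, the 8 calls were 2 each of the kainate, NMDA, metabotropic and SAPAP genes.

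**Figure D3:**
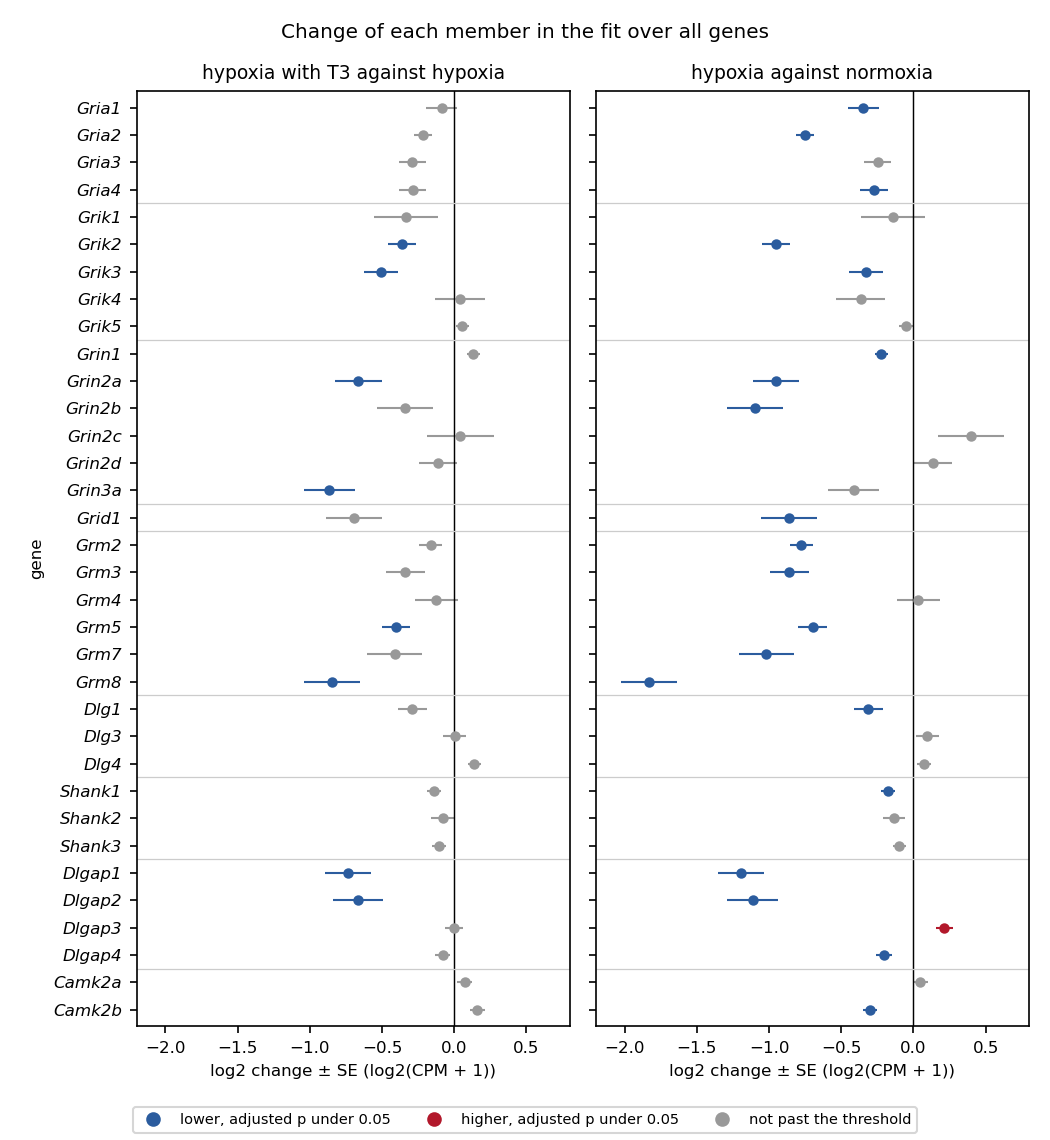
Log2 change of each of the 34 members on the log2(CPM + 1) scale with its SE, in hypoxia with T3 against hypoxia (left) and hypoxia against normoxia (right); colour shows the call at adjusted p under 0.05. In the right panel 20 members are lower and Dlgap3 is higher, and in the left panel 8 members are lower; the panels share the hypoxia libraries.

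Hypoxic neurons with T3 were also set against normoxia, a comparison that holds the oxygen and the hormone together. In it 23 members (67.6%) were lower and 2 (5.88%) higher, against 29.5% and 25.5% of all tested genes and 55.1% in either direction, and the median log2 change of the members was -0.51. In 23 members (67.6%) all 3 libraries with T3 lay below all 3 normoxia libraries and in 3 (8.82%) above, against 33.0% and 29.8% of all tested genes. The 2 higher members were Dlg4, 0.21 (SE 0.05, adjusted p = 0.003), and Dlgap3, 0.21 (SE 0.06, adjusted p = 0.013). Grm8 had -2.68 (SE 0.19, adjusted p = 2.7e-06), Dlgap1 -1.93 (SE 0.16, adjusted p = 6.1e-06) and Dlgap2 -1.78 (SE 0.17, adjusted p = 1.7e-05). Grin2a had -1.62 (SE 0.16, adjusted p = 1.7e-05) and Grid1 -1.55 (SE 0.20, adjusted p = 7.5e-05). All 4 AMPA receptor subunits and all 3 SHANK genes were lower in this comparison. Of the 14 members that span more than 300 kb 12 were lower (85.7%), beside 90.5% of all tested genes of that span. With equal column sums 20 members were lower and 5 were higher, and Shank2, Shank3 and Camk2b lost their calls. Of all 12937 genes tested with that scaling, 2849 were lower and 4536 higher.

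Summed by class in the deposited scaling, the hypoxia libraries lay below the normoxia libraries in every class except the MAGUK genes. The columns summed to 945822 to 971035 in hypoxia and 1025181 to 1091200 in normoxia. The smaller differences of these sums, and whether the libraries overlap, therefore rest on that scaling. With equal column sums Shank2 and Shank3 changed sign, and Dlg3 and Dlg4 were called higher. With 3 libraries against 3 the exact permutation test, two-sided, cannot give a p below 0.1, so the sums are given as levels. The AMPA subunits summed to 549 ± 19.8 in hypoxia with T3, 624 ± 45.2 in hypoxia and 928 ± 47.0 in normoxia, in CPM (SD, n = 3 each), a difference of -32.8% between hypoxia and normoxia (exact permutation p = 0.1). The metabotropic receptors summed to 228 ± 26.6 in hypoxia with T3, 289 ± 35.4 in hypoxia and 490.4 ± 19.3 in normoxia, in CPM, a difference of -41.1% between hypoxia and normoxia. The NMDA subunits summed to 464 ± 10.4 in hypoxia with T3, 455 ± 25.6 in hypoxia and 599 ± 49.9 in normoxia, in CPM, a difference of -24.1%. Grin1 has the highest CPM of that class in every library. The difference between hypoxia and normoxia was -14.2% for the kainate subunits, -19.3% for the SAPAP genes, -13.8% for the CaMKII subunits and -10.1% for the SHANK genes, each without overlap of the libraries (exact permutation p = 0.1). The MAGUK genes summed to 863 ± 30.2 in hypoxia with T3, 805 ± 17.1 in hypoxia and 773 ± 36.9 in normoxia, in CPM, with overlap between hypoxia and normoxia (exact permutation p = 0.3).

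Proportions within classes were compared in the same way. As a percentage of the summed AMPA subunit CPM, Gria2 made up 52.5 ± 2.07 in hypoxia with T3, 53.9 ± 0.540 in hypoxia and 61.0 ± 3.89 in normoxia (SD, n = 3 each), and all hypoxia libraries lay below all normoxia libraries (exact permutation p = 0.1). The log2 ratio of Gria1 to Gria2 CPM was -0.575 ± 0.164 in hypoxia with T3, -0.706 ± 0.0535 in hypoxia and -1.11 ± 0.274 in normoxia, and all hypoxia libraries lay above all normoxia libraries; normoxia 1, at -0.80, was nearest to hypoxia. The log2 ratio of Camk2a to Camk2b was -1.47 ± 0.0324 in hypoxia with T3, -1.38 ± 0.0952 in hypoxia and -1.73 ± 0.0537 in normoxia, and here too hypoxia and normoxia did not overlap (exact permutation p = 0.1). The log2 ratio of Grin2a to Grin2b, which rises as cortical synapses mature, was -3.71 ± 0.361 in hypoxia with T3, -3.24 ± 0.152 in hypoxia and -3.30 ± 0.244 in normoxia, with overlap between hypoxia and normoxia (exact permutation p = 0.7). CPM do not correct for transcript length, so each ratio is compared between libraries only.

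**Figure D4:**
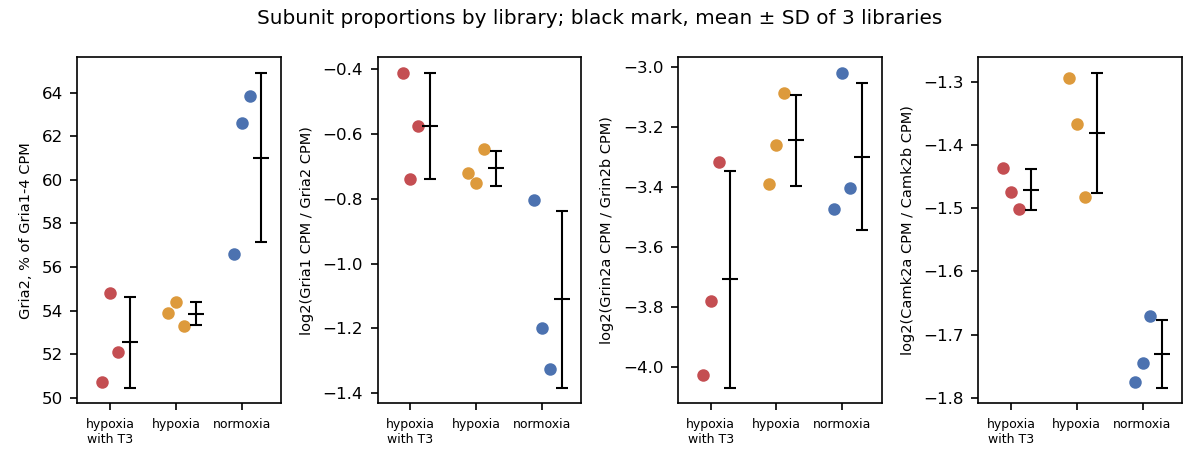
Subunit proportions in the 3 libraries of each group, from left to right the Gria2 share of the AMPA subunit CPM and the log2 ratios of Gria1 to Gria2, Grin2a to Grin2b and Camk2a to Camk2b; the black mark is the mean ± SD, and the vertical axes do not start at 0. Hypoxia and normoxia are apart in all panels except that of Grin2a to Grin2b.

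The members differ widely in length, from 12 kb for Grm2 to 922 kb for Grm7 in the RefSeq annotation of GRCm38, and the changes were larger among the long genes. In hypoxia against normoxia, 11 of 14 members over 300 kb were lower (78.6%, beside 78.5% of 494 tested genes of that span), 5 of 7 between 100 and 300 kb (71.4%, beside 48.5% of 1492), and 4 of 13 under 100 kb (30.8%, beside 12.7% of 10862). Within the longest class the median log2 change was -0.91 for the members and -0.61 for all tested genes. With T3 against hypoxia the same classes held 6 of 14 lower (42.9%, beside 25.1%), 2 of 7 (28.6%, beside 12.1%) and 0 of 13 (0.0%, beside 1.65%). Spearman's rho between span and log2 change was -0.75 over the 34 members and -0.47 over 12848 tested genes in hypoxia against normoxia, and -0.72 and -0.47 with T3 against hypoxia. Both are descriptions across genes that share libraries. Against the pattern, Grm2 (12 kb), Grin1 (28 kb), Shank1 (51 kb) and Camk2b (97 kb) were lower in hypoxia though under 100 kb, and the members over 300 kb that did not pass were Shank2 (448 kb), Grik4 (427 kb) and Grik1 (395 kb). The 5 members with the smallest log2 changes in hypoxia against normoxia, Grm4, Camk2a, Grik5, Dlg4 and Dlg3, are all under 100 kb. Whether the members changed beyond what goes with their length was not tested.

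**Figure D5:**
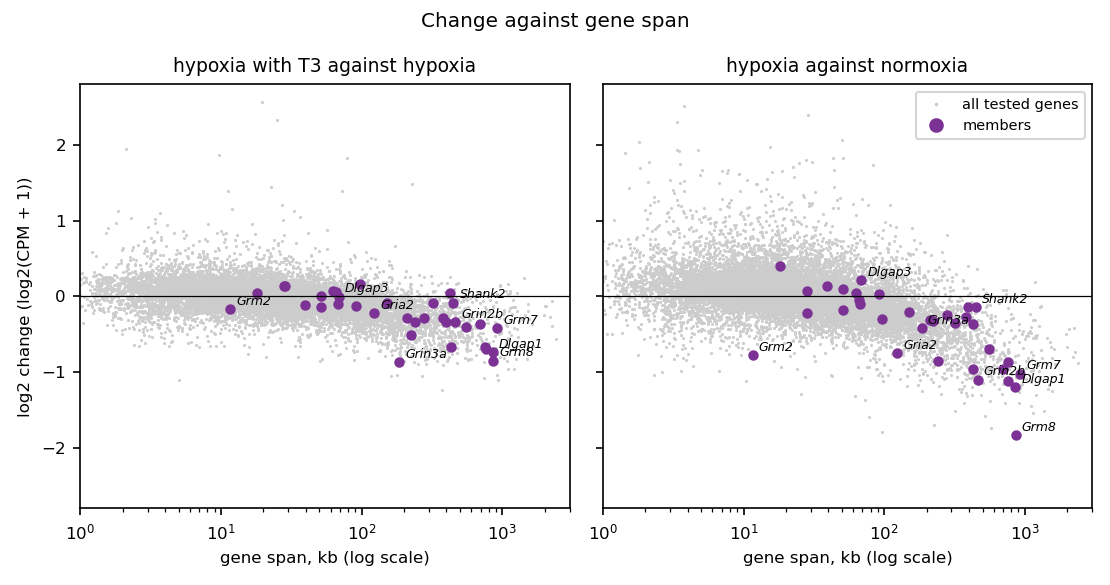
Log2 change on the log2(CPM + 1) scale (vertical axis) against gene span in kb (horizontal axis, log scale) for hypoxia with T3 against hypoxia (left) and hypoxia against normoxia (right); purple points are the 34 members and grey points the tested genes with a RefSeq span, of which 79 and 82 of 12848 fall outside the axes. Both clouds bend downward beyond about 100 kb, and the members follow them. In the right panel Grm2 (12 kb) is at -0.78, where all tested genes under 100 kb run from -4.44 to 5.66 with a median of 0.04.

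Levels were compared between genes as CPM divided by the summed exon length of GENCODE, which overstates the transcript of genes with many alternative exons. Camk2b was the highest member, with 277 ± 5.99 CPM per kb in hypoxia with T3, 247 ± 4.97 CPM per kb in hypoxia and 305 ± 15.8 CPM per kb in normoxia (SD, n = 3 each). Grin1 stood at 89.8 ± 2.02 CPM per kb in hypoxia with T3, 82.0 ± 2.59 CPM per kb in hypoxia and 95.7 ± 2.65 CPM per kb in normoxia. Camk2a stood at 78.2 ± 3.06 CPM per kb in hypoxia with T3, 74.4 ± 3.87 CPM per kb in hypoxia and 71.98 ± 1.73 CPM per kb in normoxia. Next in normoxia came Dlgap4 (67.6 ± 4.06 CPM per kb) and Grik5 (66.7 ± 2.98 CPM per kb), and the means of Dlgap4 and Grik5 differed by less than either SD. The lowest normoxic level was that of Grin2c, 0.106 ± 0.107 CPM per kb. Grm8 and Dlgap1 stood at 1.11 ± 0.416 and 11.5 ± 1.95 CPM per kb in hypoxia, against 4.50 ± 0.565 and 26.3 ± 1.90 CPM per kb in normoxia.

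The rest of the glutamatergic synapse was read from the same fit through 3 lists of other genes. Of 28 other postsynaptic density genes 17 were lower and 3 higher in hypoxia than in normoxia, where 19.3% of all tested genes were lower and 14.3% higher. Arc, the activity-induced gene that drives AMPA receptor removal, had a log2 change of 1.92 (SE 0.13, adjusted p = 3.6e-06), with means of 11.6 ± 1.66 CPM in hypoxia and 2.33 ± 0.395 CPM in normoxia (SD, n = 3). Cnksr2, a scaffold of the Ras pathway, had -1.13 (SE 0.13, adjusted p = 0.00016), Grip1, which binds the Gria2 and Gria3 tails, had -0.82 (SE 0.09, adjusted p = 0.00014), and Camk2g had -0.40 (SE 0.06, adjusted p = 0.00051). Of 16 auxiliary subunits of AMPA and kainate receptors 4 were lower and 3 higher. The smallest adjusted p belonged to Cnih3, which slows AMPA receptor closing (-0.56, SE 0.07, adjusted p = 0.00025), Cacng3, a TARP (0.88, SE 0.14, adjusted p = 0.00095), Shisa9 (-0.54, SE 0.13, adjusted p = 0.0089) and Shisa7 (0.24, SE 0.06, adjusted p = 0.012). Of 11 tested genes for loading, uptake and synthesis of glutamate 3 were higher and 8 did not pass. The 3 were Gls2, a glutaminase (1.07, SE 0.17, adjusted p = 0.0011), Glul, the glutamine synthetase of astrocytes (0.56, SE 0.14, adjusted p = 0.0099), and Slc1a6, a glutamate transporter (0.53, SE 0.15, adjusted p = 0.019). Over all 55 tested genes of the 3 lists, 38.2% were lower and 16.4% higher, beside 58.8% and 2.94% of the members and 19.3% and 14.3% of all tested genes.

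With T3 against hypoxia, 5 of the same 55 genes were lower and 3 higher (9.09% and 5.45%), beside 3.75% and 2.73% of all tested genes. Arc was higher with T3 than in hypoxia, 0.86 (SE 0.13, adjusted p = 0.01), with means of 21.8 ± 1.64 CPM in hypoxia with T3 and 11.6 ± 1.66 CPM in hypoxia (SD, n = 3). Gls2 and the scaffold gene Lin7b were higher as well, 0.73 (SE 0.17, adjusted p = 0.035) and 0.36 (SE 0.09, adjusted p = 0.045). Lower with T3 were the postsynaptic density genes Magi2 (-0.82, SE 0.20, adjusted p = 0.041), Lrrc7 (-0.54, SE 0.12, adjusted p = 0.032), Lin7a (-0.48, SE 0.11, adjusted p = 0.036) and Grip1 (-0.41, SE 0.09, adjusted p = 0.032), and the kainate receptor auxiliary subunit Neto1 (-0.39, SE 0.10, adjusted p = 0.039).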

How the data were processed

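Per the labels' protocols, RNA of cultured cortical neurons was made into stranded, polyadenylated libraries. The deposited values are a signal, CPM after TMM scaling by the authors, in 1 column per library. The submitters' processing notes name mm10, edgeR, RSEM 1.2.15 and Bowtie2 2.1.0, and whether counting used strand is not given in the sources used here. In each library 99.89% to 100% of the values are whole reads (tolerance 0.01 reads) once divided by the step of that library, and the 35 rows with other values hold no member. The columns sum to 945822 to 1091200, and 1 unlabelled column was not used. Libraries were grouped by their column headers.

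Values were tested in R 4.3.3 with limma 3.58.1 (trend, two-sided) on log2 of the value plus 1, all 9 libraries in 1 fit with 6 residual degrees of freedom, over 12923 genes with a value above 1 in at least 3 libraries, with Benjamini-Hochberg adjustment and a threshold of 0.05. Sums and ratios were compared by the exact permutation test. On the recovered reads of 12888 genes edgeR 4.0.16 called 2324 genes lower and 1964 higher in hypoxia against normoxia, and DESeq2 1.42.0 called 2429 and 2027; with T3 against hypoxia edgeR called 428 and 324, and DESeq2 971 and 771. Reads are not molecules, and depth covers counting error only. Gene spans came from RefSeq GRCm38 (99.4% of tested genes matched), exon lengths from GENCODE and upstream windows from the RefSeq promoter table. The other alternatives were 2 pseudocounts (0.1 and 5), 2 filters, only the 2 groups compared, 3 scalings, no variance trend, library weights and leaving out each library.

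The members and the lists were chosen with earlier results of these data known. By rule the text gives all members, up to 4 members of each of 3 other lists with the smallest adjusted p in each comparison, and Slc2a1, Pdk1 and Bnip3. Magi2, Lin7b, the 6 neuronal markers, Slc17a7, Slc1a2, Slc1a3 and Aldoc fall outside it and were picked with their values known. Another list is not reported here.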

Additional observations from a re-analysis of the deposited data

How the results depend on the processing

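No paired analysis was possible because columns 7 to 9 (hypoxia) and 11 to 13 (hypoxia with T3) carry none of the replicate numbers that GEO's titles use; a replicate block could not be fitted. Against normoxia, hypoxia gave 20 members lower and 1 higher; equal column sums gave 13 lower and 4 higher, quantile normalization 13 and 3, no variance trend 0 higher, and leaving out each library 14 to 21 lower and 0 to 2 higher. With T3 against hypoxia, 8 members were called; 0 were with no filter on low values and with no variance trend, 1 with only the 2 groups compared, 17 with library weights (16 lower, 1 higher), 14 with DESeq2 (3 higher), and 0 to 11 without each library (0 to 11 lower, 0 to 1 higher). With T3 against normoxia, 2 members were higher, 5 with equal column sums and 1 to 3 without each library. Of all tested genes in hypoxia against normoxia, equal column sums gave 1229 lower and 3982 higher, and quantile normalization 2128 and 2176. With T3 against hypoxia, library weights gave 1659 lower and 1391 higher of all tested genes, DESeq2 971 and 771, and only the 2 groups compared 132 and 145. Of the calls, 12 of 21, 0 of 8 and 21 of 25 held in all settings, in the order hypoxia against normoxia, T3 against hypoxia and T3 against normoxia.

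The values that changed sign were uncalled in the fit to the deposited values. In hypoxia against normoxia, equal column sums gave log2 changes of 0.089 for Grik5, 0.004 for Shank2 and 0.041 for Shank3, quantile normalization 0.076 for Grik5 and 0.026 for Shank3, and leaving out a library -0.338 to 0.039 for Grik1 and -0.102 to 0.16 for Grm4. With T3 against hypoxia, library weights gave -0.167 for Grik4, -0.003 for Grin2c, -0.045 for Dlg3 and 0.021 for Dlgap3. Dlg3 was -0.032, -0.001 and -0.01 with equal column sums, median-of-ratios scaling and quantile normalization, and Dlgap3 was 0.004 with edgeR and 0.001 with DESeq2. Without each library the ranges were -0.096 to 0.205 for Grik4, -0.087 to 0.139 for Grin2c, -0.185 to 0.009 for Grin2d, -0.043 to 0.043 for Dlg3 and -0.041 to 0.057 for Dlgap3. With T3 against normoxia, equal column sums gave 0.016 for Grin1 and 0.01 for Grm4, library weights gave -0.111 for Grin2d, and the ranges were -0.02 to 0.042 for Grik5, -0.087 to 0.145 for Grin2d and -0.226 to 0.036 for Grm4. The difference of the summed NMDA subunits, T3 minus hypoxia, was -1.407 CPM with equal column sums and -4.411 to 20.72 CPM without each library. The difference of the summed CaMKII subunits, T3 minus normoxia, was 34.21 CPM with equal column sums. The log2 ratio of Grin2a to Grin2b, hypoxia minus normoxia, was -0.03437 to 0.1929 without each library. The causes were not tested.

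With 3 libraries a group, exact tests of sums and ratios cannot pass 0.05. Counts alone cannot separate a scaling shift from a shared change of many genes. Depth limits the low members: at 1 read per 0.0302 to 0.0565 CPM, Grin2c rests on few reads in normoxia.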
